A study of Oryza sativa with 8 samples.

Results

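The comparison described here sets the ethylene-treated roots of the rice mutant mhz7 against its roots kept in air, with 1 Affymetrix rice array for each gas. These are 2 of the 8 arrays of the series, which holds 1 array for each combination of genotype (WT, mhz7), tissue (root, shoot) and gas. All seedlings were etiolated: seeds were kept for 2 days at 37 °C without light to germinate, and the seedlings were 3 days old when 10 ppm ethylene was given for 8 h at 28 °C in the dark, with seedlings in air as the control. Each labelling used 5 µg of total RNA. The labels give neither the rice cultivar, the lesion in mhz7, nor how many seedlings were pooled, so the mutant is one line of unstated strength and each condition is one RNA sample.

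Ethylene is a gaseous hormone that plants perceive through receptors in the endoplasmic reticulum. Without ethylene the receptors hold the membrane protein EIN2 inactive; with ethylene, EIN2 passes the signal on to EIN3/EIL transcription factors in the nucleus. MHZ7 is listed as a synonym of EIN2 in the gene table used here, and EIN2 mutants of rice are known for roots that keep growing in ethylene, where WT roots stop.

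All 57258 probe sets that are not controls were compared. Signals were scaled so that each array had the same trimmed mean, signals under a floor of 100 were set to 100, and the log2 difference is ethylene minus air throughout. A probe set is said to have risen or fallen where that difference was at least 1 in size, which is 2-fold, and the higher of its 2 signals was at least 200. With 1 array per condition there is no spread between replicates and no test between the 2 arrays, so these words state the size of a difference between 2 samples only. Where the lower signal was under the floor, the fold is given as "at least".

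In mhz7 roots 71 probe sets rose and 194 fell, which is 0.124% and 0.339% of those compared, and together 0.463%. Taking 1 probe set for each of 13839 measured genes, 0.275% rose and 0.737% fell. The changed probe sets included 171 with a single annotated gene, covering 52 genes that rose and 112 that fell. The same rule gave 234 rises and 225 falls in WT roots (0.409% and 0.393%, together 0.802%). It gave 16 and 114 in mhz7 shoots (0.0279% and 0.199%, together 0.227%), and 117 and 301 in WT shoots (0.204% and 0.526%, together 0.73%). Falls made up 73.2% of the changes in mhz7 roots, 49.0% in WT roots, 72.0% in WT shoots and 87.7% in mhz7 shoots. These counts come from single pairs of arrays, and the differences between them were not tested.

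Most of the transcriptome of the mutant root stayed close to its level in air. Over the 21444 probe sets whose signal averaged 200 or more across the 8 arrays, here called measured, the median log2 difference was 0.00, and 95.5% lay within 0.5 of no difference. The middle of the distribution ran from -0.10 at the lower quartile to 0.08 at the upper. The lowest percentile ended at -0.89 and the highest began at 0.64, against -0.98 and 0.93 in WT roots. The upper tail was the shorter one in mhz7 roots: only 7 probe sets rose at least 3-fold, against 52 in WT roots, while 54 fell at least 3-fold, against 45 in WT roots. At the lower limit of 1.5-fold the mhz7 counts were 284 rises and 528 falls.

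**Figure D1:**
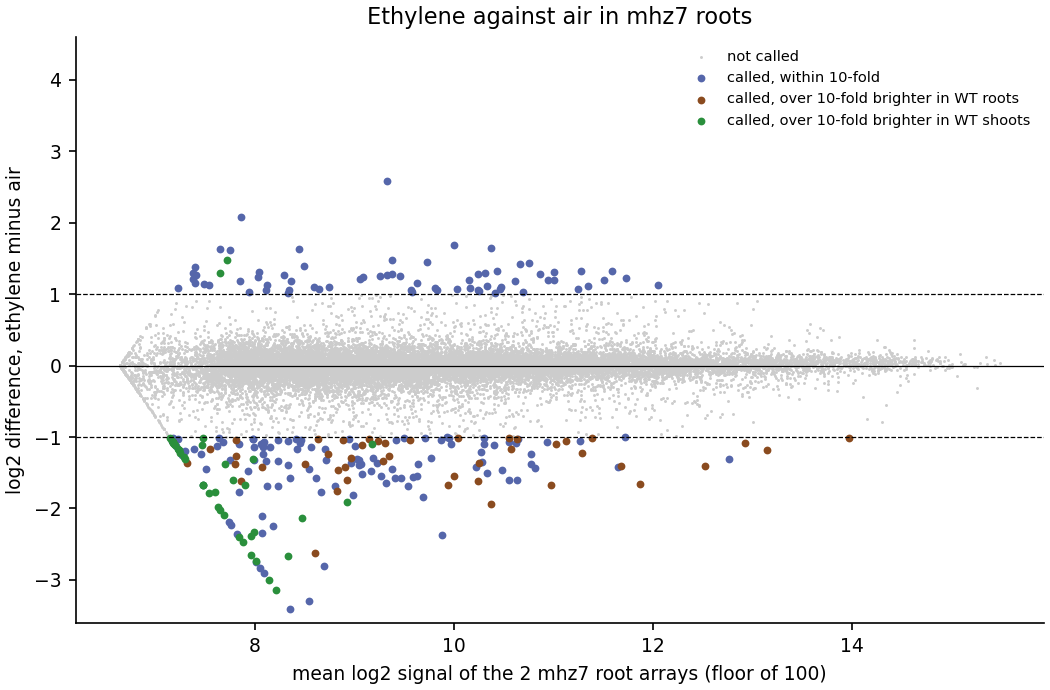
Log2 difference between ethylene and air in mhz7 roots (vertical axis) against the mean log2 signal of the 2 arrays (horizontal axis) for the measured probe sets and those with a 2-fold change in either genotype's roots; dashed lines mark 2-fold. Of the coloured points, 7 of the 71 rises and 54 of the 194 falls lie beyond 3-fold, and 37 of the falls belong to transcripts over 10-fold brighter in WT shoots than in WT roots.

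Before the genes, the state of the 2 samples has to be given. Before scaling, the trimmed means of the 8 arrays were between 238 and 250.3, and 52.7% and 52.4% of the probe sets were under the floor on the mhz7 root arrays in air and in ethylene. The 7 root markers summed to 119568 in air and 104435 in ethylene, and each was above the floor on both arrays. The 13 shoot markers summed to 5083 in air and 3756 in ethylene, with 5 and 10 of them under the floor. In WT roots they summed to 14510 and 11355. PPDKB, a pyruvate phosphate dikinase, made up 3011 and 2846 of the mhz7 root sums. It was brighter in WT roots (7181) than in WT shoots (1841) in air. Of 12 endosperm and aleurone markers, 11 were under the floor on both arrays. A set of 231 probe sets was at least 20-fold brighter in WT shoots than in WT roots in both gases, with a WT shoot signal of at least 2000. It had a median signal in mhz7 roots of 1.76% of the mhz7 shoot level in air and 1.37% in ethylene. Actin control probe sets at the 3′ end were 21.8 times as bright as those at the 5′ end in air and 26.1 times in ethylene, and a second pair gave 6.81 and 9.32. This ratio, which reflects RNA integrity and labelling, was 20.4 and 20.7 for the first pair in WT roots. It was 18.3 and 28.1 in WT shoots and 25.7 and 35.6 in mhz7 shoots, so it was higher in ethylene there too. Fewer cells of a type in a sample and less RNA per cell cannot be told apart in such material.

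The genes of the ethylene pathway itself changed little. EIN2 had a signal of 2792 in air and 2462 in ethylene in mhz7 roots, and 1649 and 1064 in WT roots. The transcript of the mutated gene was thus readily detected in the mutant, and since no source used here places the lesion relative to the probes, its level does not check the genotype. None of the 7 perception and signalling genes measured reached 2-fold, and their median log2 difference was 0.01, beside 0.00 over the 13839 genes measured.

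Among the receptors, ETR2 gave the clearest contrast between genotypes. Its signal went from 557 to 692 in mhz7 roots, a log2 difference of 0.31, and from 975 to 2519 in WT roots, a log2 difference of 1.37. ERS1 (4333 and 4480), ERS2 (359 and 361) and ETR3 (1269 and 1267) had nearly the same signal in air and ethylene. ETR4 was near the floor, at 94.5 and 112. Of the EIN3-like transcription factors, EIL1A had 7112 in air and 7756 in ethylene. EIL1B had 5891 and 5458 in mhz7 roots, beside 3255 and 1927 in WT roots.

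Of 8 measured genes of ethylene biosynthesis 1 fell, beside 0.737% of all genes measured. ACO1, an ACC oxidase that makes ethylene from its precursor ACC, went from 254 to 125, a log2 difference of -1.02. ACO1 is a shoot-abundant transcript, 15.2-fold brighter in WT shoots than in WT roots in air, with 9940 in mhz7 shoots in air. ACS2, an ACC synthase, had 302 in air and 554 in ethylene, a difference of 0.88 that did not reach 2-fold, and ACS1 was under the floor on both arrays. SAM1 and SAM2, which make the S-adenosylmethionine that ACC synthase uses, differed by 0.11 and 0.17.

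Of the strongest ethylene responses of WT roots, no rise and only 2 falls reached 2-fold in mhz7 roots. The 8 genes with the largest rises in WT roots had mhz7 log2 differences between -0.75 and 0.23. LOC4344999, the largest, went from 384 to 5517 in WT roots and from 128 to 150 in mhz7 roots. LOC4326518 went from 296 to 2015 in WT roots and was 287 in air and 171 in ethylene in mhz7 roots. Over all 234 WT rises the median log2 difference was 1.26 in WT roots and 0.00 in mhz7 roots, and over the 225 WT falls it was -1.24 and -0.23. Of the WT rises, 164 lay within 0.5 of no difference in mhz7 roots, and so did 155 of the falls. These WT probe sets were chosen on the WT arrays, so their WT medians describe the choice, while the mhz7 values come from other arrays.

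Of the 8 largest WT root falls, 6 were below 2-fold in mhz7 roots. ADC2, an arginine decarboxylase of polyamine synthesis, went from 2572 to 315 in WT roots and had 8296 in air and 8248 in ethylene in mhz7 roots. CRSH2, a plastid synthetase of the alarmone ppGpp, went from 8449 to 1576 in WT roots and had 17699 and 17869 in mhz7 roots. LOC4349647 went from 3227 to 670.5 in WT roots and had 7351 and 6087 in mhz7 roots. The exceptions were LOC4347709 and the lipid transfer protein gene LTP2-B, which fell in both genotypes and are taken up with the shoot transcripts below.

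**Figure D2:**
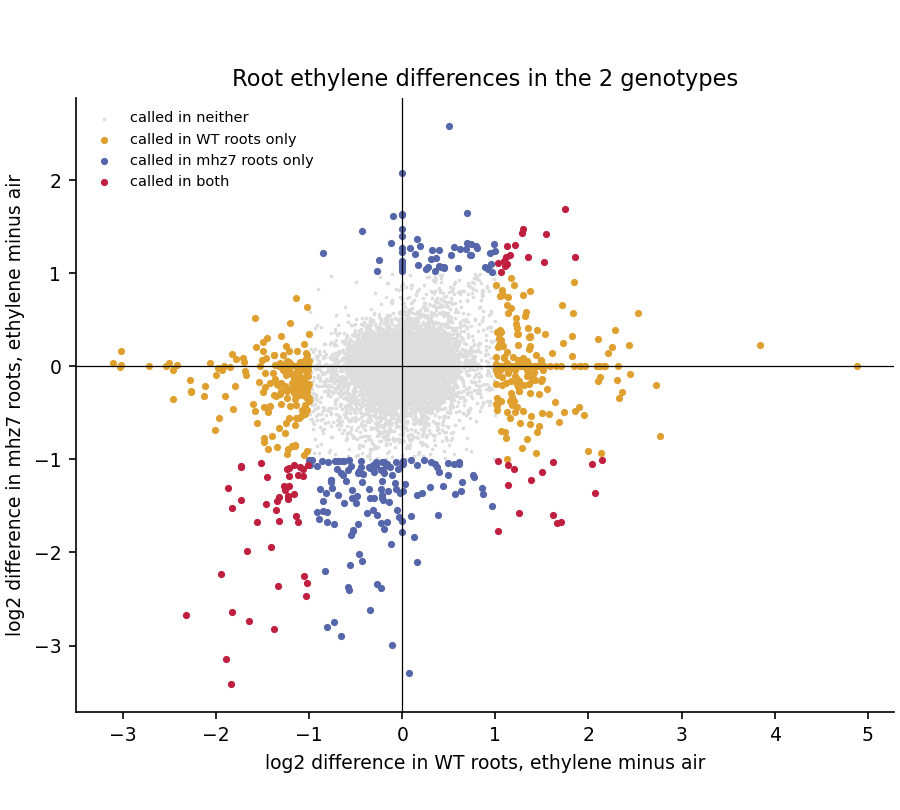
Log2 difference between ethylene and air in WT roots (horizontal axis) against that in mhz7 roots (vertical axis), 1 point per probe set that was measured or changed 2-fold in either; colours show where a probe set changed 2-fold. Most WT changes lie along the horizontal axis, where mhz7 differences are near 0; the points changed in both fall into the lower left (43), the upper right (16) and the lower right (15), where WT rose and mhz7 fell.

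Rises in mhz7 roots were few and modest. LOC4336402 was the largest with a single gene, from 264 in air to 1577 in ethylene, 5.98-fold, while its WT root signals were 131 and 186. LOC4332175 went from 571 to 1841 in mhz7 roots and from 527 to 1764 in WT roots, so both genotypes had nearly the same signals in both gases. LOC4347963 went from 750 to 2346, with 827 and 1341 in WT roots. LOC4325658 went from 400 to 1112, and from 609 to 1490 in WT roots. LOC4344046 went from 991 to 2657 in mhz7 roots and from 2948 to 8598 in WT roots, a similar log2 difference (1.42 and 1.54) from a lower level. No gene description goes with these locus identifiers in the tables used here.

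A second kind of rise started from transcripts that were low in WT. LOC4347266 had 197 in air and 613 in ethylene in mhz7 roots and was under the floor on both WT root arrays, at 26.8 and 34.1. LOC4337905 had 114 and 353, with WT root signals of 42.4 and 37.4. MYB2, a MYB transcription factor, had 222 and 583, with WT root signals of 67.7 and 79.3. Over all 71 probe sets that rose, the median signal was 455 in air and 1092 in ethylene in mhz7 roots, and 201 and 313 in WT roots. None of the rises started under the floor.

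Only 6 genes with a symbol rose. Beside MYB2 these were MS (781 to 1891), PAL06, TIP3-1, NAC067 and ABA8OX1. PAL06, a phenylalanine ammonia-lyase at the entry to phenylpropanoid synthesis, went from 1920 to 4398, and its other probe set differed by 0.99. NAC067, a NAC transcription factor, went from 1777 to 3839 in mhz7 roots and from 958 to 1957 in WT roots, so it rose 2-fold in both genotypes. ABA8OX1, an abscisic acid 8′-hydroxylase that breaks the hormone down, went from 850 to 1753 in mhz7 roots, and its WT root signals were 480 and 571. TIP3-1, a tonoplast aquaporin, went from 121 to 267.

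Falls were larger, and the largest of all were transcripts abundant in shoots. LOC4341282 fell from 1064 to under the floor, at least 10.6-fold, and had 20548 in mhz7 shoots in air; its second probe set differed by 0.08. LOC4349605 fell from 884, at least 8.84-fold, and LOC9270481 from 800, at least 8.00-fold. GER5, a germin-like protein of the cell wall, fell from 709 to under the floor, at least 7.09-fold, and had 29948 in mhz7 shoots in air. LOC4347709 went from 817 to 128 in mhz7 roots and from 1661 to 332 in WT roots, with 34070 in mhz7 shoots. LTP2-B went from 469 to under the floor, and its probe sets ranged from -2.23 to -1.30.

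Of 895 probe sets over 10-fold brighter in WT shoots than in WT roots in air, here called shoot-type, 37 fell in mhz7 roots and 2 rose. Over the 818 of them that were measured, 4.52% fell, 0.244% rose and the median log2 difference was 0.00. Most of the 895 were too dim in mhz7 roots to be called. Only 185 reached a signal of 200 on either mhz7 root array, and 20% of those fell, with a median of -0.17. In WT roots, one of whose arrays was used to set this class, 6.36% of the 818 fell, and 20.1% of the 259 that reached 200 there. All 10 of the largest falls in mhz7 roots were over 3-fold brighter in WT shoots, and 4 were over 10-fold brighter. Of 18 measured photosynthesis and chlorophyll genes 2 fell, beside 0.737% of all genes measured. PETE, the electron carrier plastocyanin, went from 335 to 129, and CAB2R, a light-harvesting chlorophyll protein, from 243 to under the floor. The other 16 did not reach 2-fold, and 8 of them were under the floor on both arrays. RBCS, the small subunit of Rubisco, had 281 and 225 in mhz7 roots, and 1042 and 279 in WT roots. The shoot markers summed above include GER5, LTP2-B and CAB2R, so their lower sum in ethylene is not separate from these falls. The part of shoot RNA in these falls was not tested.

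Of 365 root-type probe sets, over 10-fold brighter in WT roots than in WT shoots in air, 45 fell in mhz7 roots and none rose. Over the 334 measured ones 12.6% fell and the median was -0.22. In the other comparisons 8.68% of these 334 fell in WT roots, 11.7% in mhz7 shoots and 9.28% in WT shoots. Most of the 365 were too dim in shoots to be called. Only 97 reached a signal of 200 on either mhz7 shoot array and 87 on either WT shoot array, and 40.2% and 35.6% of those fell. In mhz7 roots 345 reached it and 13% of those fell. The WT arrays in air set this class, and the differences between these shares were not tested. Among the 20292 measured probe sets of neither type, 0.458% fell and 0.266% rose in mhz7 roots. The falls in root-type transcripts included LOC4350217, from 963 to 157, LOC4348831, from 831 to 247, LOC4334012, from 3592 to 1126, and LOC4342187, from 2128 to 692. WT roots had 966 and 757 for LOC4350217 and 9397 and 9150 for LOC4342187, so both stayed below 2-fold there. Without the shoot-type probe sets, 69 rises and 157 falls remained in mhz7 roots.

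**Figure D3:**
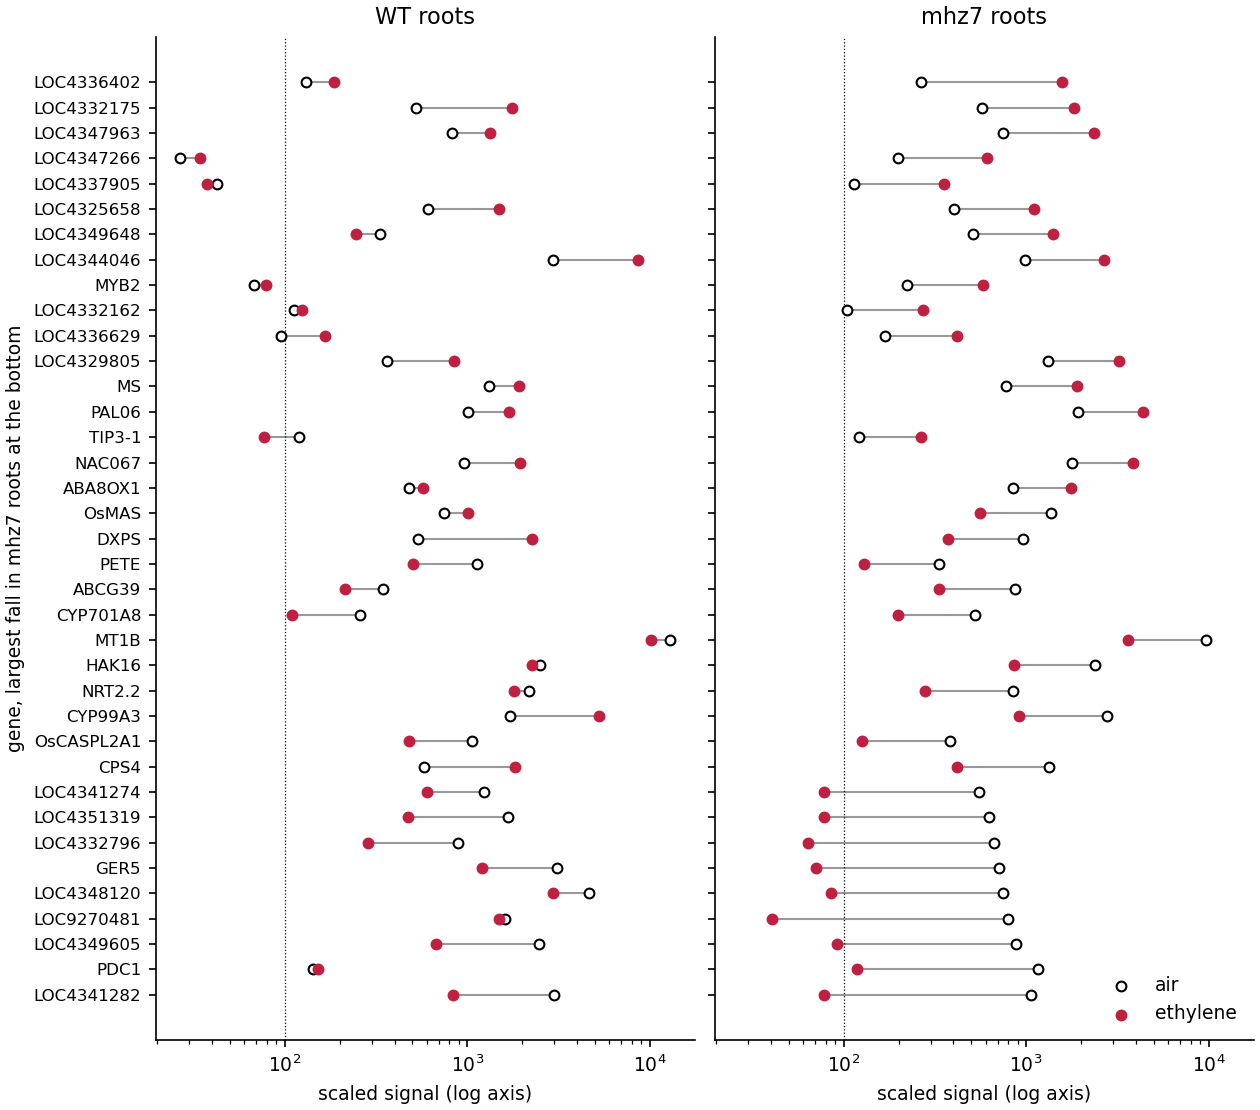
Scaled signals in air (open circles) and ethylene (filled circles) on single arrays of WT roots (left) and mhz7 roots (right), on a log axis, for the leading rises and falls of mhz7 roots; the dotted line is the floor of 100. In mhz7 roots PDC1 drops from 1169 to 119, close to the floor, and CPS4, CYP99A3 and DXPS move in opposite directions in the 2 genotypes.

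PDC1, a pyruvate decarboxylase that commits pyruvate to ethanol fermentation, gave the largest fall measured on both arrays. Its signal was 1169 in air and 119 in ethylene in mhz7 roots, 9.84-fold. WT roots were low in both gases, at 144 and 151, whereas WT shoots went from 1206 to 130 and mhz7 shoots stayed high, at 5543 and 4936. The mhz7 root sample in air therefore stood above both WT root samples, and the mhz7 root sample in ethylene was at their level. The other fermentation enzymes did not follow: PDC2 had 6122 and 6273, PDC3 141 and 177, and the alcohol dehydrogenase Adh2 2321 and 2381. In WT roots Adh2 had 9241 and 14607.

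The non-symbiotic haemoglobins, which scavenge nitric oxide, had lower signals with ethylene in mhz7 roots and higher ones in WT roots. NSHB2 fell from 319 to under the floor in mhz7 roots, at least 3.19-fold, and rose from 1239 to 4050 in WT roots. NSHB1 went from 619 to 326 in mhz7 roots, a log2 difference of -0.93 that did not reach 2-fold, and from 924 to 2499 in WT roots. Shoots showed the same split, with NSHB2 going from 4579 to 12078 in WT and from 2601 to 1035 in mhz7. In each tissue and gas NSHB2 was lower in mhz7 than in WT. In the whole list of fermentation and low-oxygen genes, 2 of 12 fell, beside 0.737% of all genes measured. None of the 12 rose, and the median was -0.02.

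Diterpenoid phytoalexins are antimicrobial compounds of rice, among them the momilactones, which roots also release into the soil. Of 9 measured genes for their synthesis, 6 fell in mhz7 roots and none rose, beside 0.737% falls among all genes measured, and the median log2 difference was -1.15. CPS4, the cyclase that starts momilactone synthesis, went from 1336 to 416. CYP99A3, a cytochrome P450 of the same route, went from 2779 to 916, and its partner CYP99A2 from 1991 to 920. OsMAS, a momilactone A synthase, went from 1362 to 558, and KSL4, the kaurene synthase-like enzyme that follows CPS4, from 380 to 172. CYP701A8 went from 524 to 200. CYP71Z7, CYP76M8 and CYP76M6 differed by -0.26, -0.10 and 0.13.

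CPS4, CYP99A3, OsMAS, KSL4 and CYP99A2 lie together in the genome: in the gene order of the ASM3414082v1 assembly they take up 5 of 6 consecutive protein-coding genes. These are the known momilactone gene cluster of rice. In WT roots the cluster was split, with CPS4 going from 580 to 1828 and CYP99A3 from 1722 to 5294, while OsMAS (744 and 1009), KSL4 (278 and 176) and CYP99A2 (978 and 834) stayed below 2-fold. In WT shoots, where 1.26% of all genes fell, all 5 fell, by 1.14 to 1.69 on the log2 scale. In mhz7 shoots they differed by -0.77 to -0.47. DXPS, a 1-deoxyxylulose 5-phosphate synthase of the plastid pathway that supplies diterpenes, went from 963 to 374 in mhz7 roots and from 539 to 2268 in WT roots.

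**Figure D4:**
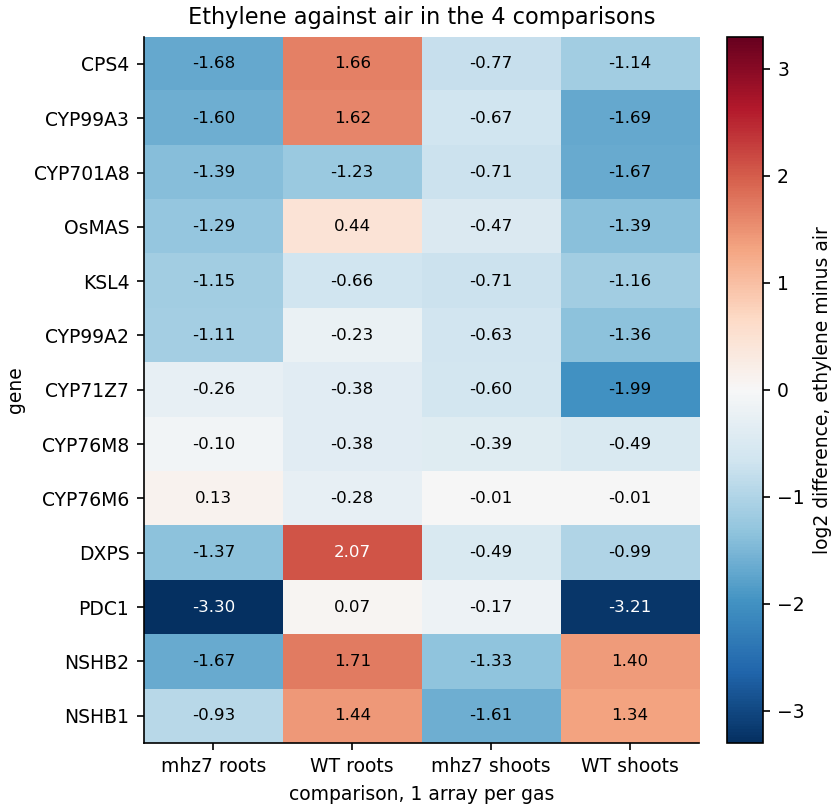
Log2 difference between ethylene and air for the 9 phytoalexin genes, DXPS, PDC1 and the haemoglobin genes (rows) in the 4 comparisons (columns), each from 1 array per gas; blue is lower and red higher in ethylene. CPS4, CYP99A3, DXPS, NSHB2 and NSHB1 are blue in mhz7 roots and red in WT roots, and PDC1 is strongly blue in mhz7 roots and in WT shoots only.

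The momilactone cluster was 1 of 7 groups of neighbouring genes that fell. Among the 112 genes that fell, 21 lay in these groups, the cluster included, with no more than 5 other genes between neighbours. Among the 52 that rose, 2 lay in 1 such group, LOC4346786 and LOC4346787. How often measured genes at large lie this close was not counted. A longer list also holds more neighbours, so these counts are a description only. LOC4350821, LOC4350822 and LOC4350823 are 3 consecutive genes, and went from 2965 to 1098, from 5268 to 1969 and from 849 to 398. LTP2-B, LTP and LOC4351319 are also 3 consecutive genes, and LOC4348119, LOC4348120, LOC4348121 and LOC4348123 make up 4 of 5. Probe sets of closely similar neighbours can share target RNA, and such members are not independent.

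Single members of several mineral nutrient lists fell. Over all 13839 genes measured 0.737% fell and 47.4% were below 0 in mhz7 roots, and the list counts here stand beside those shares. NRT2.2 and PHT1-4 are root-type transcripts, and 12.6% of the measured root-type probe sets fell, with a median of -0.22. HAK16 and AMT3-3 are not root-type. NRT2.2, a high-affinity nitrate transporter, went from 848 to 280, with 2169 and 1795 in WT roots. AMT3-3, an ammonium transporter, fell by 1.03 on the log2 scale, and AMT3-2 had 3507 and 2137, below 2-fold. In the list of 7 nitrate, ammonium and urea transport genes 2 fell and the median was -0.18. HAK16, a potassium transporter, went from 2373 to 864 and was the 1 fall among 18 potassium transport genes, whose median was -0.13. PHT1-4, a phosphate transporter, went from 3057 to 1423 and was the 1 fall among 12 phosphate genes, whose median was 0.03. The glutamine synthetase GLN1-2 had 3352 and 1764, a difference of -0.93, beside 15480 and 17563 in WT roots.

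Of 26 iron acquisition genes 1 fell, none rose, and 21 were below 0, with a median of -0.16. Over all genes measured 0.737% fell and 47.4% were below 0. YSL15, which takes up iron bound to phytosiderophores, went from 2283 to 1020, with 6928 and 5176 in WT roots. NAAT1 and NAS1, enzymes of phytosiderophore synthesis, had 8383 and 5102, and 25075 and 17176. IRT1, the ferrous iron transporter, ran the other way at 596 and 848. Of 7 metallothionein genes, which encode small metal-binding proteins, 2 fell and all 7 were below 0, with a median of -0.22; MT2C, MT1A and MT2B differed only by -0.11, -0.06 and -0.02. MT1B went from 9628 to 3620 and MT4C from 22809 to 11274, while WT roots had 40480 and 40811 for MT4C. Both are root-type transcripts, a class whose median was also -0.22.

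None of 29 jasmonate genes rose or fell. Their median was 0.09, the same as that of the auxin response list given below, and 8 were below 0, beside the 47.4% of all genes. The largest differences were those of JAZ13 and TIFY11A, repressors of jasmonate signalling that are themselves jasmonate-induced. JAZ13 had 3307 in air and 6168 in ethylene in mhz7 roots, and 371 and 332 in WT roots. TIFY11A had 2205 and 4058 in mhz7 roots, and 214 in both gases in WT roots. Both were thus higher in the mutant than in WT in either gas, by more than their ethylene difference.

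Of 23 abscisic acid genes 1 rose, ABA8OX1, and none fell. Over all genes measured 0.275% rose and 0.737% fell in mhz7 roots, and the mhz7 list counts here stand beside those shares. In WT roots, where 0.889% of all genes fell, 4 of this list fell: RAB21 (535 to 178), LEA19 (719 to 291), RAB16D (496 to 214) and RAB16C (351 to 155), dehydrins and related proteins of dry or stressed tissue. In mhz7 roots these had log2 differences of 0.52, 0.33, 0.46 and 0.01. The 5 measured NAC genes had a median of 0.54, with NAC6 at 1022 and 1487 beside NAC067. In the defence list 1 of 20 rose (PAL06) and 1 fell, the chitinase Cht9, from 233 to under the floor. The beta-glucosidase BGLU34, a root-type transcript, went from 2270 to 1116, the 1 fall among 20.

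**Figure D5:**
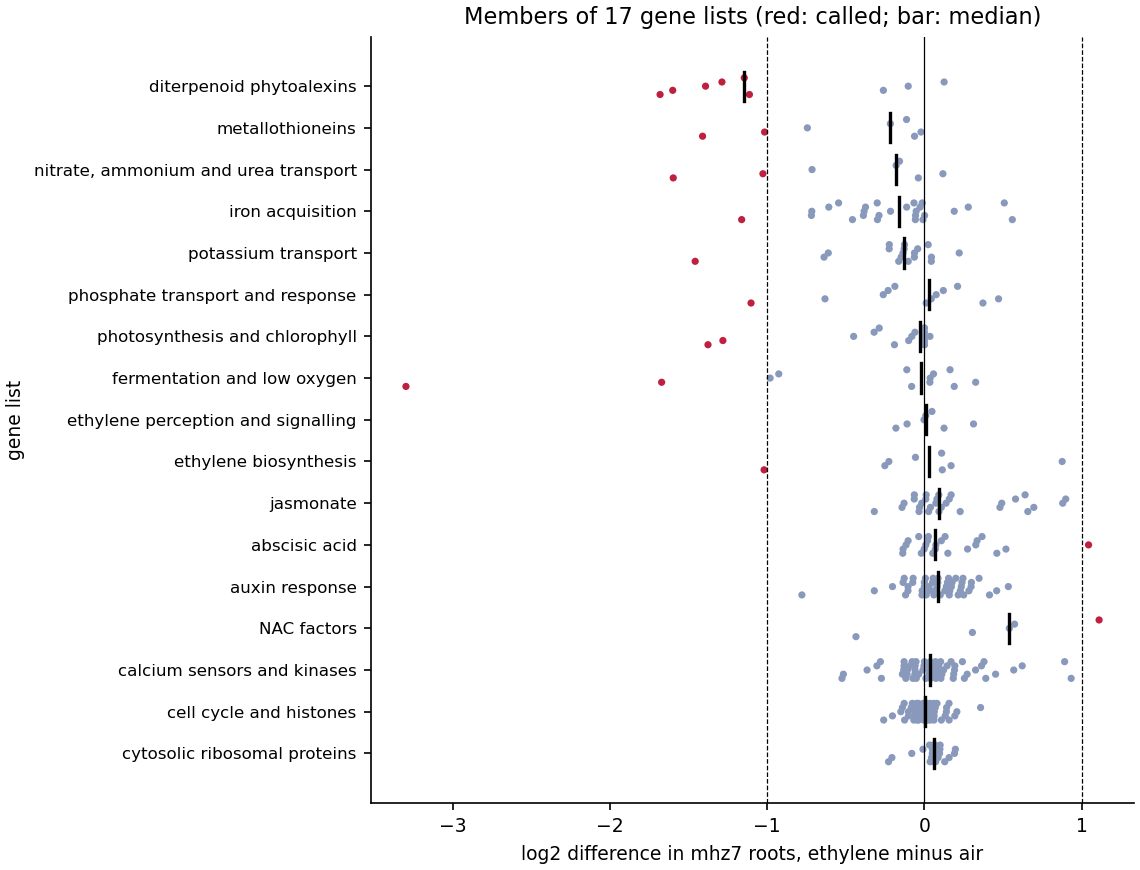
Log2 difference between ethylene and air in mhz7 roots for the measured members (points) of 17 gene lists (rows); red points changed 2-fold, black bars are list medians, and dashed lines mark 2-fold. The phytoalexin median of -1.15 stands furthest from 0, with 6 of 9 genes fallen; the ethylene signalling, cell cycle and ribosomal genes lie close to 0.

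Many functional groups held no 2-fold change among their measured genes. Over all 13839 genes measured only 0.275% rose and 0.737% fell, so most lists of these sizes would hold few or none. Of 36 gene lists, 34 had at least 5 measured genes, and 19 of those held no measured gene that changed 2-fold in mhz7 roots. They include auxin response (48 genes, median 0.09), cytokinin (25, -0.06), gibberellin (10, 0.02), expansins and wall-loosening enzymes (22, -0.04), aquaporins (21, -0.01), heat shock (32, -0.03), calcium sensors and kinases (61, 0.04), cell cycle and histones (59, 0.00) and cytosolic ribosomal proteins (24, 0.06). The median of 32 of the 34 lists was within 0.25 of 0, the exceptions being the phytoalexin and NAC lists.

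The residual changes were next looked for in the other 3 ethylene comparisons, which share no array with this one. Of the 265 changed probe sets, 59 changed the same way in WT roots, 22.3% of the mhz7 changes and 12.9% of the 459 WT changes. The rises overlapped with WT rises in 16 of 71 and none was a WT fall. The falls overlapped with WT falls in 43 of 194, and 15 were WT rises. Background shares in WT roots were 0.409% for rises and 0.393% for falls, over all 57258 probe sets. Of these, 51.5% in air and 52.8% in ethylene were under the floor, whereas all 265 reached 200 in mhz7 roots. Such shares, also those given for shoots below, are thus low as a background. Among the 20578 probe sets of neither type that reached 200 in WT roots, 1.03% rose and 0.69% fell. Of the 55 rises that were not WT rises, 36 (65.5%) were above 0 in WT roots, where 56.0% of all measured probe sets were. Of the 151 falls that were not WT falls, 101 (66.9%) were below 0 there, beside 41.4% of all.

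Leaving out the shoot-type probe sets brought the falls shared with WT roots to 24 of 157 and the rises to 16 of 69. The 13 shared falls with a single gene that were not shoot-type by the 10-fold limit included GER5 and LTP2-B, described above, and LOC4335203, from 917 to 319 in mhz7 roots and from 354 to under the floor in WT roots, and LOC4350342, from 1096 to 403 and from 861 to 259. LOC4345685 went from 3555 to 1711 in mhz7 roots and from 2545 to 1265 in WT roots. The 13 shared rises included LOC4330027, from 1360 to 3116 in mhz7 roots and from 187 to 417 in WT roots, and LOC4337987, from 876 to 1900 and from 431 to 1235.

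With WT shoots, 35 of the 194 falls were shared (18.0%; 0.526% of all probe sets fell there), and 3 of the 71 rises. With mhz7 shoots, 14 falls were shared (7.22%; 0.199% of all probe sets fell there) and no rise, while 3 of the rises were falls in mhz7 shoots. The falls shared with WT shoots included PDC1, the 5 genes of the momilactone cluster, CYP701A8 and LOC4349245, which went from 1563 to 439 in mhz7 roots and from 488 to 140 in WT shoots. LOC4352168 alone fell in all 4 comparisons: from 13676 to 6045 in mhz7 roots, from 10557 to 4539 in WT roots, from 506 to 240 in mhz7 shoots and from 281 to under the floor in WT shoots. No gene rose in all 4. Across the 21444 measured probe sets the correlation of the mhz7 root difference with that of WT roots, mhz7 shoots and WT shoots was 0.19, 0.15 and 0.15 (Pearson), a description over probe sets that share labelling and background.

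A test was possible only with root and shoot taken as samples of one ethylene effect per genotype, which asks for what both tissues have in common. In a limma fit to all 8 arrays with 2 residual degrees of freedom, no probe set of 21444 had an ethylene effect in mhz7 at an adjusted p under 0.05. An unadjusted p under 0.05 was found for 840 (3.92%), fewer than that limit passes where nothing differs. The lowest adjusted p in mhz7 was 0.954, and that group held NSHB2 (-1.50, SE 0.13), LOC4352168 (-1.13, SE 0.10) and PHT1-4 (-1.06, SE 0.10). On the upper side JAZ13 (0.95, SE 0.17) and ABA8OX1 (0.79, SE 0.14) were among the 6 genes with the smallest p, at an adjusted p of 0.980 in limma. In WT 2 probe sets passed (0.00933%, adjusted p = 0.0488 in limma), both of LOC4349647, and 1852 (8.64%) had an unadjusted p under 0.05.

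The difference between the genotypes' ethylene effects passed for no probe set either. An unadjusted p under 0.05 was found for 1070 (4.99%), about the share that this limit passes where nothing differs. The smallest adjusted p in limma, 0.230, was shared by LOC4349647, whose effect was 1.97 higher (SE 0.11) in mhz7 than in WT on one of its probe sets, and NSHB2, whose effect was lower by 3.05 (-3.05, SE 0.18). NSHB1 followed at -2.66 (SE 0.25, adjusted p = 0.492 in limma). For PDC1 the root and shoot values of the mutant were far apart, and its mean effect was -1.73 with an SE of 1.07. The fit therefore says nothing of changes confined to roots, for which these data hold 1 array per gas.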

How the data were processed

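The deposited values are intensity values on a linear scale, 1 per probe set and array, and MAS5 is the tool named in the submitters' processing notes; no source used here gives its version, its scaling target or detection calls. After 123 controls were set aside, each array was scaled to a mean of 500 without the highest and lowest 2%, and values under 100 were set to 100 before log2. The number of arrays limits the precision; 1 per condition gives no error.

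The annotation gave a single gene to 22436 probe sets, more than one to 95 and no gene to 34727; symbols came from the ASM3414082v1 gene table. In lists and medians a gene is represented by its brightest probe set, if that averaged 200 or more across the arrays.

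Named genes are the 15 largest rises and falls measured on both arrays, the 12 largest with a symbol, 8 bounds, up to 6 per list, the pathway genes, and the 8 leading WT changes each way; the text gives the clearest of them, and no EBF symbol was matched. Genes of the neighbour and overlap paragraphs were chosen after their values were seen. Members and lists were chosen with earlier results of these data known. The limma 3.58.1 fit (R 4.3.3) had an intercept per genotype and tissue and an ethylene effect per genotype, with Benjamini-Hochberg adjustment. On simulated data it recovered 167 of 200 effects of log2 size 1 and passed 16 of 21044 unchanged probe sets. The 2-fold rule in roots was passed by 184 of those unchanged. These counts hold for the simulated spread and do not measure the power of the fit on the real arrays. Alternatives were the floor, scaling, loess, quantile normalization, fold, minimum signal and probe sets kept. Promoter motifs and sequences were not analysed here.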

Additional observations from a re-analysis of the deposited data

Results flagged for a closer look

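In 15 probe sets the root of WT rose at least 2-fold in ethylene while the root of mhz7 fell at least 2-fold; none went the opposite way. With 1 array per condition the difference within roots was not tested. For each, the mhz7 log2 difference minus the WT one is given. It was -3.44 for DXPS, -3.38 for NSHB2, -3.34 for CPS4 and -3.22 for CYP99A3, whose signals stand in the report. Among genes with a locus number it was -2.84 for LOC4346052 (mhz7 root 567 to 190, WT root 186 to 445), -2.80 for LOC4337246 (425 to 124, and 392 to 799), -2.64 for LOC4326355, -2.41 for LOC4345832, -2.30 for LOC4343026 (1473 to 686, and 772 to 1773) and -2.19 for the shoot-type transcript LOC9270480. In 5 probe sets without a single gene it was -3.15, -3.08, -2.64, -2.60 and -2.05. The limma test of the genotype difference over root and shoot gave an adjusted p of 0.230 for NSHB2.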

How the results depend on the processing

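No paired analysis was possible because each condition has 1 array and the labels carry no replicate numbers; for the same reason no replicate could be left out. A floor of 50, the deposited values doubled, quantile normalization and loess gave 71 to 73 rises and 182 to 202 falls; a floor of 200 gave 56 and 143. The fold limit set the counts. At 1.5-fold there were 284 rises and 528 falls, 65.0% of them falls, and 12.1% were shared with mhz7 shoots; at 3-fold there were 7 and 54, 88.5% of them falls, with 13.1%, 0.00% and 9.84% shared with WT roots, mhz7 shoots and WT shoots. With 1 probe set per gene there were 38 rises and 102 falls, and 21.4% were shared with WT shoots, against 14.3%. A floor of 200, or a minimum of 400 for the higher signal, gave 10.6% there, and without the probe sets that WT shoots showed over 3-fold brighter, an alternative chosen after seeing the data, the value was 16.7% shared with WT roots, against 22.3%. The cause of these shifts was not tested, except that higher limits and fewer probe sets leave fewer calls by construction. With no minimum on the mean signal, 4 probe sets passed limma for the genotype difference and none for the mhz7 effect; the 4 mhz7 arrays alone gave none. The medians of the 10 lists tried moved by less than intervals taken over their member genes. Those intervals are wide, -1.60 to -0.10 for the phytoalexins. They also treat genes from 1 pair of arrays as repeats, so they do not show how stable the medians are. Photosynthesis had too few genes for a median without the shoot-type ones. No named gene reversed. A floor of 200 took 14 named probe sets below 2-fold, among them NSHB2, ACO1, TIP3-1 and PETE, and quantile normalization took 2 that have no single gene. Signals near the floor limit what dim transcripts can show.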
